A study of Mus musculus with 7 samples.

Results

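DFL16.1 was the most used D segment of the mouse immunoglobulin heavy chain (Igh) locus in these data, and it is the one described here. Its members were chosen by measured values. Junctions of all 7 libraries were pooled and counted in 50-bp bins over the distal D region, the bin with the most junctions was taken, and all junctions within 300 bp of its most frequent position were kept. This gave 36318 of the 162617 D-region junctions read in deletional orientation, or 22.3%. The chosen bin held 23734 junctions and the next bin not touching it 14941. The edge of the window lay in nearly empty sequence, where the farthest junction inside stood at 296 bp and the nearest outside at 302 bp, and 98.9% of the members lay within 30 bp of the most frequent position.

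Functional Igh genes are assembled in developing B cells by the RAG endonuclease, which cuts next to recombination signal sequences made of a heptamer, a spacer and a nonamer. A D segment is first joined to a JH segment and a VH segment is then joined to the DJ product. Coding ends are opened from hairpins, trimmed and extended with P nucleotides, which mirror an untrimmed end, and with N nucleotides added by terminal transferase. A D segment can be read in any of its frames, which by convention are numbered from the frame rich in tyrosine codons, and frame 2 of mouse D segments is known for a truncated heavy chain product, the Dmu protein.

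Pro-B cells were sorted as B220+CD43highIgM- from the bone marrow of 129SVE mice aged 4 to 6 weeks, and their genomic DNA was used. There were 4 VH81X-CBEscr/scr libraries and 3 wild-type (WT) libraries. CBE stands for CTCF-binding element, and the genotype is taken to mean that both copies of the element near VH81X were scrambled, a reading that the labels do not state. The assay, HTGTS, is a form of translocation sequencing that starts from a primed bait and reads whatever DNA was joined to it. The bait was the JH4 coding end, so joins to other JH segments are largely outside the measurement. Whether each library came from its own mouse is not given, so p-values cover only how these libraries vary, which may be technical.

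The libraries held 31986 to 46915 junctions, of which 19460 to 30998 lay in the D region. Read names showed 4 sequencing runs, 2 for each genotype, and none held both genotypes. Run and genotype therefore cannot be told apart. WT replicate 2 stood apart at DFL16.1 through a single join described below, and the values it moves most are given with and without that join.

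The coding bases of DFL16.1 occupied chr12:114734544-114734566 on the minus strand (mm9, positions as in the files), an intergenic D gene segment whose 3′ end lay 63.4 kb from the JH4 coding end. Its length of 23 bases was that of Ighd1-1, the only D segment of this length that is not called a pseudogene in the RefSeq gene table of GRCm38.p6. This match rests on length alone. The table holds 10 D segments that are not pseudogenes, against 12 analysed here. It places Ighd1-1 from 113482170 and the end of Ighj4 at 113428567, which is less than 63.4 kb apart. The sequences below show why DFL16.1 joins could be read base by base. They are the consensus of reads, written in coding orientation, with the D coding bases in capitals after the nonamer, spacer and heptamer of the signal on the V side. D segments without a common name are called by the mm9 position of their 3′ coding end on chromosome 12. Between DFL16.1 and D_114719358 the nonamer and heptamer were identical, and the coding bases shared a run of 10, attactacgg. D_114727777 is the neighbouring D segment, and JH4 begins with 7 bases, attacta, that DFL16.1 also holds.
DFL16.1: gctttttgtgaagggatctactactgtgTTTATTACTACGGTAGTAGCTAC
D_114719358: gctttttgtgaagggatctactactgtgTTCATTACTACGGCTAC
D_114727777: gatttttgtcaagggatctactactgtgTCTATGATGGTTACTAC
JH4 coding bases: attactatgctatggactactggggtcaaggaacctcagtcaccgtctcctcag

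The share of DFL16.1 among D-region junctions was not shown to differ between genotypes. The share was 22.8, 20.5, 23.2 and 20.4% in VH81X-CBEscr/scr replicates 1 to 4, against 22.8, 23.2 and 22.9% in WT replicates 1 to 3. The ranges overlapped. Without the repeated join described below, WT replicate 2 held 20.3%, lower than VH81X-CBEscr/scr replicate 2. The Wilson 95% interval of VH81X-CBEscr/scr replicate 2, the library with the fewest D-region junctions, was 19.99 to 21.1% and covers counting error only. The mean was 21.7 ± 1.45% in VH81X-CBEscr/scr (SD, n = 4) and 22.97 ± 0.211% in WT (SD, n = 3), where leaving that join out gave 21.99 ± 1.501%. With limma-voom over 24 D-region clusters, the log2 fold change of VH81X-CBEscr/scr over WT was -0.08 (SE 0.0563, 95% interval -0.20 to 0.04), with a Benjamini-Hochberg adjusted p of 0.563. An exact two-sided permutation test of the log2 share over all 35 splits gave p = 0.286, where 0.0286 is the smallest p this design allows. The difference between the group means of log2 share was -0.08, and -0.02 without the repeated join (exact permutation test, p = 0.943).

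Of the 24 clusters tested, 1 was called, or 4.17%, and 2 had an unadjusted p under 0.05, or 8.33%. It was D_114687612, a D segment of 16 coding bases 16.5 kb from JH4, which fell to 2.87 ± 0.261% in VH81X-CBEscr/scr, against 4.04 ± 0.228% in WT (limma-voom, adjusted p = 0.00397, with a log2 fold change of -0.50). The clusters next to DFL16.1 by position, D_114733437 and D_114732517, held 0.121% and 0.635% of junctions in VH81X-CBEscr/scr, against 0.100% and 0.642% in WT, with limma-voom adjusted p-values of 0.921 and 0.945.

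The levels of the 12 main D segments, which chose DFL16.1 and are given as a description, showed DFL16.1 above every other one in each of the 7 libraries. With duplicate-marked lines included, it held 1.94 to 2.41 times the share of the next segment, which was D_114705399 or D_114727777 depending on the library. D_114727777 held 9.12 ± 0.465% in VH81X-CBEscr/scr and 9.52 ± 0.695% in WT. DQ52, the D segment closest to the JH segments, held 5.71 ± 0.668% in VH81X-CBEscr/scr and 5.63 ± 1.28% in WT. The 12 segments together held 97.7 to 98.3% of D-region junctions. Among the other 11 segments, the log2 share most like that of DFL16.1 over the 7 libraries was that of D_114719358 (Pearson r = 0.55), followed by DQ52 (0.41) and D_114687612 (0.40). These shares add up to a whole within a library, so they are not independent of each other.

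**Figure D1:**
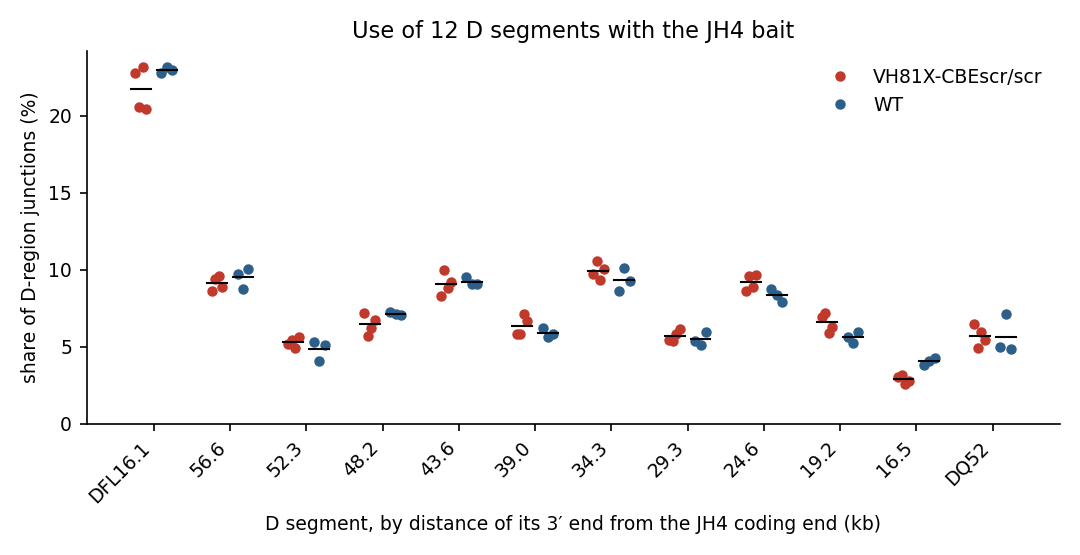
Share of D-region junctions (%) of 12 D segments, ordered by the distance of their 3′ end from the JH4 coding end in kb, with DFL16.1 at the left. Points are libraries (4 VH81X-CBEscr/scr, 3 WT) and bars are means. DFL16.1 sits between 20.4 and 23.2% in all 7 libraries and no other segment passes 10.6%.

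The share of DFL16.1 depended on how repeated reads were counted. The deposited lines carry a duplicate mark, and at DFL16.1 it was set on 90.9 ± 0.964% of lines in VH81X-CBEscr/scr (n = 4) and 92.2 ± 1.65% in WT (n = 3). At the rest of the D region it was set on 83.9 ± 1.48% of lines in VH81X-CBEscr/scr and 85.5 ± 3.496% in WT. Among lines not marked, DFL16.1 held 13.6 ± 0.628% in VH81X-CBEscr/scr and 13.9 ± 0.559% in WT. Its lead over the next segments was smaller among these lines. DFL16.1 had 438, 386, 469 and 414 of them in VH81X-CBEscr/scr replicates 1 to 4. It had 488, 314 and 559 in WT replicates 1 to 3. D_114705399 had 299, 279, 310 and 308 in VH81X-CBEscr/scr and 327, 233 and 376 in WT. D_114727777 had 276, 289, 286 and 284 in VH81X-CBEscr/scr and 338, 188 and 386 in WT. Counting each distinct join once (same junction, bait end, inserted bases and prey end) gave 21.2 ± 1.34% in VH81X-CBEscr/scr and 21.8 ± 0.853% in WT. No genotype difference passed by these counts, with limma-voom adjusted p-values of 0.817 for lines not marked and 0.868 for distinct joins.

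The ends at which DFL16.1 was joined formed a regular pattern. The junction at the intact 3′ coding end was the most frequent position of the pooled libraries, and it also centred the selection window, so its height is a description. It held 17.6, 21.0, 18.3 and 19.7% of DFL16.1 junctions in VH81X-CBEscr/scr replicates 1 to 4, and 19.2, 16.13 and 19.5% in WT replicates 1 to 3. In WT replicate 2 the position at 21 bases lost held slightly more, 16.25%. A second maximum lay at 3 bases lost, with 17.1 ± 1.05% in VH81X-CBEscr/scr and 16.12 ± 0.248% in WT, and a lower one at 6 bases lost, with 7.36 ± 0.186% in VH81X-CBEscr/scr and 6.45 ± 0.429% in WT. Between the maxima the profile dipped, to 5.92 ± 0.980% in VH81X-CBEscr/scr and 5.37 ± 0.929% in WT at 1 base lost and to 3.61 ± 0.747% in VH81X-CBEscr/scr and 3.74 ± 0.0636% in WT at 5 bases lost.

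Most DFL16.1 joins lost between 1 and 10 bases. These made up 67.1 ± 1.54% of junctions in VH81X-CBEscr/scr and 62.7 ± 6.26% in WT. The whole D was lost in 2.91 ± 0.230% in VH81X-CBEscr/scr and 3.27 ± 0.472% in WT. Junctions on the heptamer side of the end, where the alignment ran past the coding end, made up 2.67 ± 0.614% in VH81X-CBEscr/scr and 2.67 ± 0.387% in WT. Of these 961 lines, 855 ran past it by 1 base. Whether such bases were retained, or were added and matched the neighbouring base, was not tested. Losses of 11 to 22 bases were found in 7.70 to 8.38% of junctions in the 4 VH81X-CBEscr/scr libraries and in 8.05, 23.1 and 8.21% in WT replicates 1 to 3. WT replicate 2 was the library that differed, and without its repeated join it had 8.63% there and 65.9% at 1 to 10 bases lost, against 55.4% with it.

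**Figure D2:**
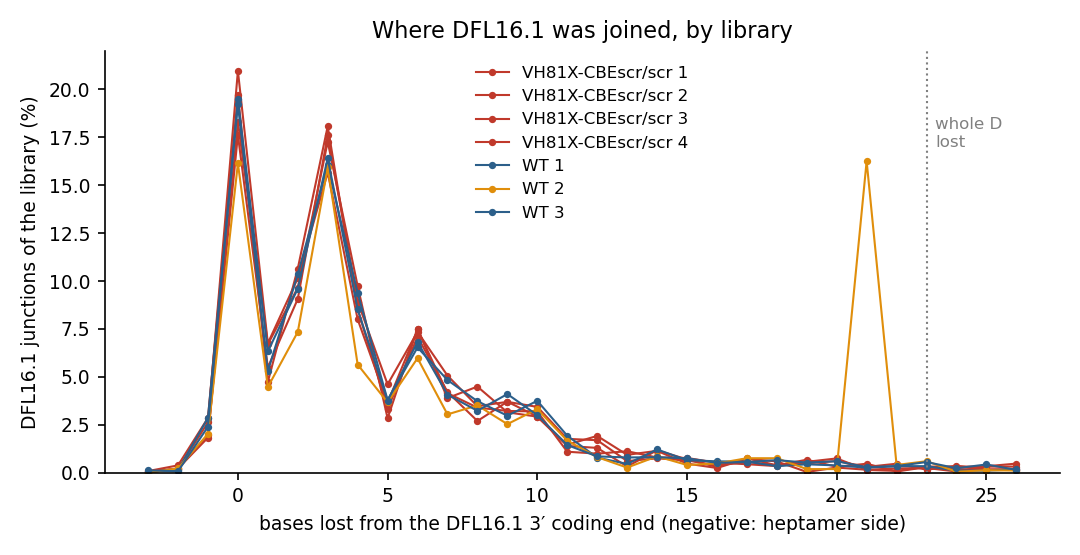
Percentage of the DFL16.1 junctions of each library (y axis) by bases lost from the 3′ coding end (x axis, negative values lie on the heptamer side). The lines of the 7 libraries share maxima at 0 and 3 bases lost, and WT replicate 2 alone has a peak at 21 bases lost.

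The excess in WT replicate 2 was 1 join. It kept only the first 2 of the 23 D bases, carried the insert AGGGG, began 8 bases into JH4 and was read in 811 lines, or 15.8% of the DFL16.1 junctions of that library. These lines had 116 distinct prey ends, and the other 6 libraries held 0 lines of it. WT replicate 2 had 861 different join forms (same junction, bait end and inserted bases), fewer than the 1342 to 2330 of the other libraries. The mean loss from the D end was 8.02 bases in WT replicate 2 and 5.57 without this join, while the other 6 libraries lay between 4.80 and 5.45. The origin of these lines was not tested.

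Other joins recurred across libraries. Of 7982 join forms, 81.8% were found in 1 library and 85 in all 7. The most frequent of the shared forms kept the full D end and JH4 without its first 2 bases, with TAC belonging to either side. It made up 1.84 ± 0.304% of DFL16.1 junctions in VH81X-CBEscr/scr and 1.75 ± 0.369% in WT, and was read in 653 lines. The form with the full D end, a single inserted G and 6 bases lost from JH4 made up 1.13 ± 0.221% in VH81X-CBEscr/scr and 0.664 ± 0.145% in WT, with no test. The sequences of the WT replicate 2 join and of these forms are printed in coding orientation, with inserted or shared bases in capitals, to show where D ends and JH4 begins.
WT replicate 2 join: ttAGGGGgctatggactactggggtcaag
Join with shared TAC: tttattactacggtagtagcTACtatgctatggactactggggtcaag
Join with shared CTA: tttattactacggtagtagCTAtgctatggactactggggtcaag
Join with inserted G: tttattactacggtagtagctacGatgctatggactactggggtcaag

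DFL16.1 ends were trimmed more than those of the other 11 D segments. In the measures of join structure, junctions on the heptamer side counted as full ends. The full 3′ end was kept in 19.8, 23.9, 20.4 and 23.1% of joins to JH4 in VH81X-CBEscr/scr replicates 1 to 4 and in 22.3, 18.4 and 22.1% in WT replicates 1 to 3. In the other 11 segments pooled it was kept in 41.2 to 42.2% of joins per library. The mean was 21.4 ± 1.94% at DFL16.1 and 41.9 ± 0.341% at the other segments (SD, n = 7), lower in 7 of 7 libraries (exact two-sided sign-flip permutation test over libraries, p = 0.0156, the smallest possible, adjusted over 9 measures 0.0281). DFL16.1 was also below each of the 11 segments singly in every library, where their means ran from 37.4 to 48.2%. In every segment the 3′ end was set as its most frequent junction in these data. The share at that end is therefore not independent of how the end was chosen.

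The mean loss from the D end was 5.58 ± 1.10 bases at DFL16.1 and 3.60 ± 0.128 at the other segments, higher in 7 of 7 libraries (exact sign-flip permutation test, adjusted p = 0.0281). Taken singly, 9 of the 11 segments lost fewer bases than DFL16.1 in every library. The difference of 1.97 bases was 1.62 bases once WT replicate 2 was counted without its repeated join, and 4.39 bases among lines not marked duplicate. D_114719358, which shares the V-side nonamer and heptamer and 10 coding bases with DFL16.1, lost 2.81 ± 0.299 bases and kept its full end in 46.4 ± 1.26% of joins. The signals on the JH side, next to the end measured here, were not compared. DFL16.1 has 23 coding bases, and the other segments have 11 to 17. The loss from JH4 was 5.27 ± 0.312 bases in DFL16.1 joins and 5.42 ± 0.0840 in joins of the other segments (exact sign-flip permutation test, adjusted p = 0.334), and the sign turned among lines not marked duplicate, where DFL16.1 joins had lost 1.09 bases more.

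**Figure D3:**
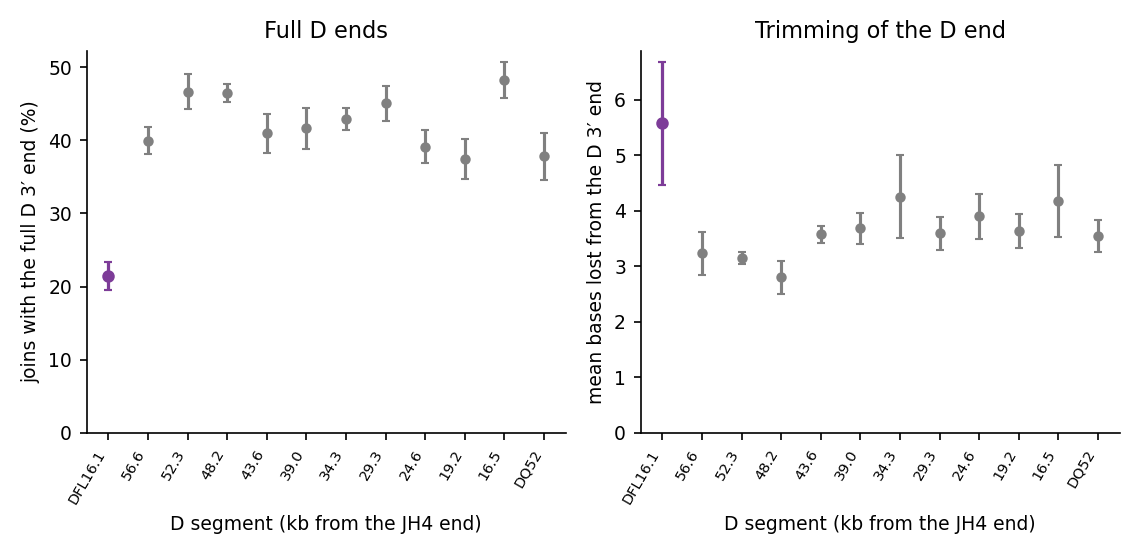
Joins to JH4 with the full D 3′ end (left, %) and mean bases lost from that end (right) for 12 D segments, DFL16.1 at the left of each panel, then by falling distance from the JH4 coding end in kb. Points are means over 7 libraries and bars are SD. Full ends include junctions on the heptamer side. DFL16.1 is at 21.4% and 5.58 bases, and the other segments lie between 37.4 and 48.2% and between 2.81 and 4.25 bases.

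Inserted bases were slightly fewer at DFL16.1 joins than at the other segments pooled. Bases belonging to neither D nor JH4 were found in 87.5 ± 1.32% of DFL16.1 joins and 89.9 ± 0.512% of joins of the other segments, lower in 7 of 7 libraries (exact sign-flip permutation test, adjusted p = 0.0281). The mean inserted length was 3.41 ± 0.130 bases at DFL16.1 and 3.96 ± 0.0775 at the other segments, also lower in 7 of 7 libraries (exact sign-flip permutation test, adjusted p = 0.0281). This was not so against each segment. Of the 11, 6 had inserted bases more often and 8 had longer inserts in every library, while DQ52 averaged 87.1% and 3.41 bases. The most frequent number was 2 bases, in 17.5 ± 0.842% of joins in VH81X-CBEscr/scr and 16.9 ± 1.36% in WT. The inserted bases had a GC content of 63.7 ± 1.68% at DFL16.1 and 63.5 ± 0.434% at the other segments (exact sign-flip permutation test, p = 0.891).

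Bases that could belong to either segment, called microhomology, were found more often at DFL16.1 than at the other segments pooled. They occurred in 6.82 ± 0.931% of its joins and in 5.42 ± 0.315% of joins of the other segments, higher in 7 of 7 libraries (exact sign-flip permutation test, adjusted p = 0.0281). The letters shared most often were TAC, in 606 lines or 24.9% of such DFL16.1 joins, followed by CTA in 484 and TA in 374. The TAC at the D end and the CTA at its last 4 bases also stand within the start of JH4, as the sequences above show. Of the 11 segments, 3 were below DFL16.1 in every library. The neighbouring D_114727777 averaged 6.72 ± 1.01%, D_114719358 5.77 ± 0.712% and D_114687612 3.53 ± 2.08%. These segments also end in CTAC, so the shared letters are not particular to DFL16.1. The difference of 1.40 percentage points was 1.38 when the most repeated join of every D segment in each library was left out (exact sign-flip permutation test, adjusted p = 0.0281).

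**Figure D4:**
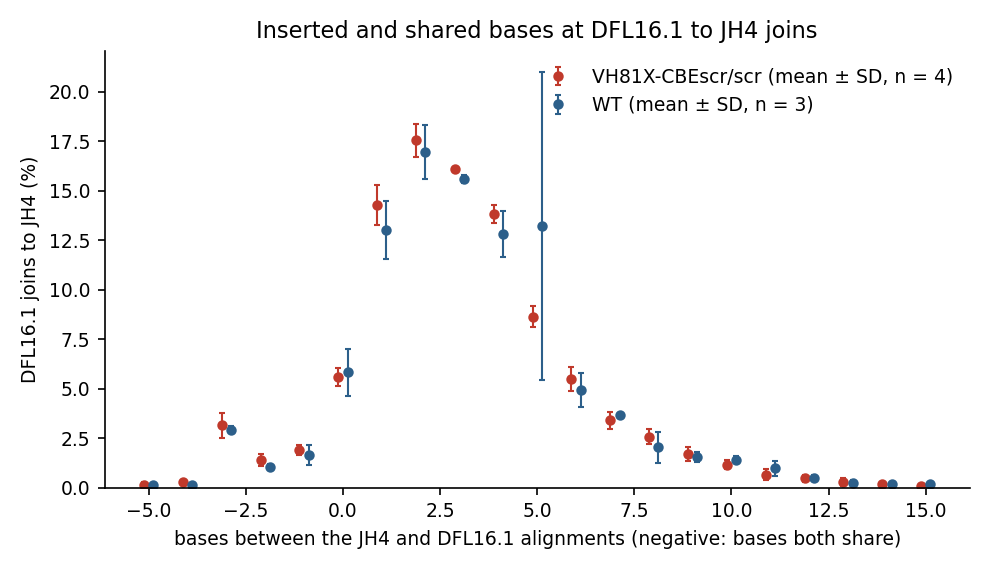
Percentage of DFL16.1 to JH4 joins (y axis) by the number of bases between the 2 alignments (x axis, negative values are bases that both share). Points are means and bars are SD of 4 VH81X-CBEscr/scr and 3 WT libraries. Both genotypes have their maximum at 2 inserted bases and a small peak at 3 shared bases, and the wide WT bar at 5 bases is the repeated join of WT replicate 2.

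Inserts next to full DFL16.1 ends more often began with bases that mirror the end, as P nucleotides do. The D end reads TAC, so the mirror of its last bases begins with GT. Only junctions exactly at the D end counted as full ends here. Inserts of at least 2 bases began with GT in 20.5 ± 3.74% of joins with the full D end and in 2.23 ± 0.871% of joins with a trimmed D end (SD, n = 7). The share was higher at full ends in 7 of 7 libraries (exact sign-flip permutation test, p = 0.0156). At full ends it was 23.4, 21.6, 18.95 and 21.7% in VH81X-CBEscr/scr replicates 1 to 4 and 23.4, 12.7 and 21.8% in WT replicates 1 to 3, lowest in WT replicate 2.

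The structure of DFL16.1 joins was not shown to differ between genotypes. None of 9 measures passed after adjustment over the measures. The mean inserted length came closest, with 3.30 to 3.39 bases in the 4 VH81X-CBEscr/scr libraries and 3.40 to 3.68 bases in the 3 WT libraries, which did not overlap (exact permutation test, p = 0.0286, adjusted 0.257). The difference of -0.167 bases was -0.0837 without the repeated join of WT replicate 2 (exact permutation test, p = 0.0857, adjusted 0.514). The loss from the D end was 5.14 ± 0.310 bases in VH81X-CBEscr/scr and 6.16 ± 1.61 in WT (exact permutation test, adjusted p = 0.450), and without that join WT had 5.34 ± 0.228 (adjusted p = 0.814). The full D end was kept in 21.8 ± 1.99% of joins in VH81X-CBEscr/scr and 20.9 ± 2.17% in WT (exact permutation test, adjusted p = 0.629).

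In DJ joins, DFL16.1 was read in each of its frames. In frame 1 the germline bases give 7 codons with 4 tyrosine codons and no stop, in frame 2 they give 5 hydrophobic codons and no stop, and in frame 3 they give 2 stop codons. Frame 1 held 38.4 ± 2.51% of DFL16.1 joins to JH4 and 41.0 ± 1.60% of those of the other segments (exact sign-flip permutation test, adjusted p = 0.0603). Frame 2 held 28.4 ± 1.88% at DFL16.1 and 24.8 ± 2.58% at the other segments, higher in 6 of 7 libraries (exact sign-flip permutation test, adjusted p = 0.0469). Segment by segment, 4 of the 11 were above DFL16.1 in every library and 3 below, and DQ52, D_114687612 and D_114719358 averaged 33.6, 33.1 and 33.0%. Frame 3 held 33.2 ± 3.88% at DFL16.1 and 34.2 ± 1.28% at the other segments (exact sign-flip permutation test, adjusted p = 0.484). WT replicate 2 was the outlying library, with 41.7% of its DFL16.1 joins in frame 3 and 30.7% without its repeated join. Leaving that join out gave a frame 3 difference from the other segments of -2.57 percentage points (exact sign-flip permutation test, adjusted p = 0.0402).

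DFL16.1 could also be followed into completed V(D)J joins, which the selection rule did not use. In these the bait was joined to a V segment and the D was read as bases between the JH4 and V alignments. A D was assigned by the longest exact match of at least 10 bases, which placed DFL16.1 in 12072 of 95203 V junctions. No D reached 10 bases in 47.4 to 48.8% of V junctions per library. With 23 coding bases against 11 to 17, DFL16.1 could lose more bases than the other segments and still be assigned. Its share among assigned D segments therefore depends on length as well as on use. Among assigned D segments, DFL16.1 made up 25.04, 26.6, 22.9 and 23.6% in VH81X-CBEscr/scr replicates 1 to 4, against 25.98, 21.8 and 26.1% in WT replicates 1 to 3. The ranges overlapped, with means of 24.5 ± 1.63% in VH81X-CBEscr/scr and 24.6 ± 2.47% in WT (exact permutation test, p = 1.0).

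Over the 7 libraries, the share of DFL16.1 was 24.6 ± 1.83% among V(D)J joins and 24.1 ± 1.39% among DJ joins that kept as many D bases (exact sign-flip permutation test, p = 0.609). This comparison depended on the match length and on the duplicate mark. The difference was -2.39 percentage points with 8 bases, 3.67 with 12 bases and 10.6 among lines not marked duplicate, so no direction is given. No line had more than 30 bases between bait and prey, and 11.6% of DFL16.1 V(D)J lines lay at 28 to 30 bases, against 5.38% for other D segments. V(D)J joins with more bases between bait and prey were not analysed here.

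Within V(D)J joins, 4.36 ± 0.126 bases were lost from the V side of DFL16.1 and 3.26 ± 0.0877 from its JH side (SD, n = 7). The V side lost more in every library (exact sign-flip permutation test, p = 0.0156, adjusted over 3 comparisons 0.0234). The JH side had lost 3.64 ± 0.110 bases in DJ joins that kept as many D bases. The difference of V(D)J minus DJ joins was -0.380 bases, below 0 in 7 of 7 libraries (exact sign-flip permutation test, adjusted p = 0.0234). The required D bases had to remain after trimming at both ends in V(D)J joins, but at the JH side alone in DJ joins. Less JH-side loss was therefore allowed in V(D)J joins. No conclusion is drawn from comparing JH-side loss or full JH-side ends between these joins. DFL16.1 kept its full JH-side end in 23.7 ± 0.795% of V(D)J joins and 23.8 ± 1.47% of DJ joins that kept as many D bases (exact sign-flip permutation test, adjusted p = 0.875). The bases between DFL16.1 and the V alignment numbered 3.72 ± 0.157, and those between JH4 and DFL16.1 2.92 ± 0.130.

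The reading frame of DFL16.1 differed between V(D)J and DJ joins in every library. Frame 1 held 50.8, 55.0, 52.3 and 57.7% of DFL16.1 V(D)J joins in VH81X-CBEscr/scr replicates 1 to 4 and 52.5, 57.9 and 50.6% in WT replicates 1 to 3. Among DJ joins that kept as many D bases it held 37.9, 38.7, 38.9 and 41.2% in VH81X-CBEscr/scr and 40.3, 40.7 and 39.3% in WT. The V(D)J and DJ values did not overlap.

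Frame 1 averaged 53.8 ± 3.07% in V(D)J joins and 39.6 ± 1.20% in DJ joins (SD, n = 7), higher in 7 of 7 libraries by 14.2 percentage points (exact sign-flip permutation test, p = 0.0156, adjusted over the 3 frames 0.0156). Frame 2, which holds no stop codon, averaged 23.6 ± 1.501% in V(D)J joins and 28.8 ± 1.08% in DJ joins, lower in 7 of 7 libraries (exact sign-flip permutation test, adjusted p = 0.0156). Frame 3, the frame with stop codons, averaged 22.6 ± 2.45% in V(D)J joins and 31.6 ± 1.24% in DJ joins, also lower in 7 of 7 libraries (exact sign-flip permutation test, adjusted p = 0.0156). The frame 1 share of V(D)J joins was 53.9 ± 3.06% in VH81X-CBEscr/scr and 53.7 ± 3.78% in WT (exact permutation test, adjusted p = 0.943). Among lines not marked duplicate, frame 1 held 52.0 ± 2.02% of V(D)J joins and 34.5 ± 1.47% of DJ joins.

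**Figure D5:**
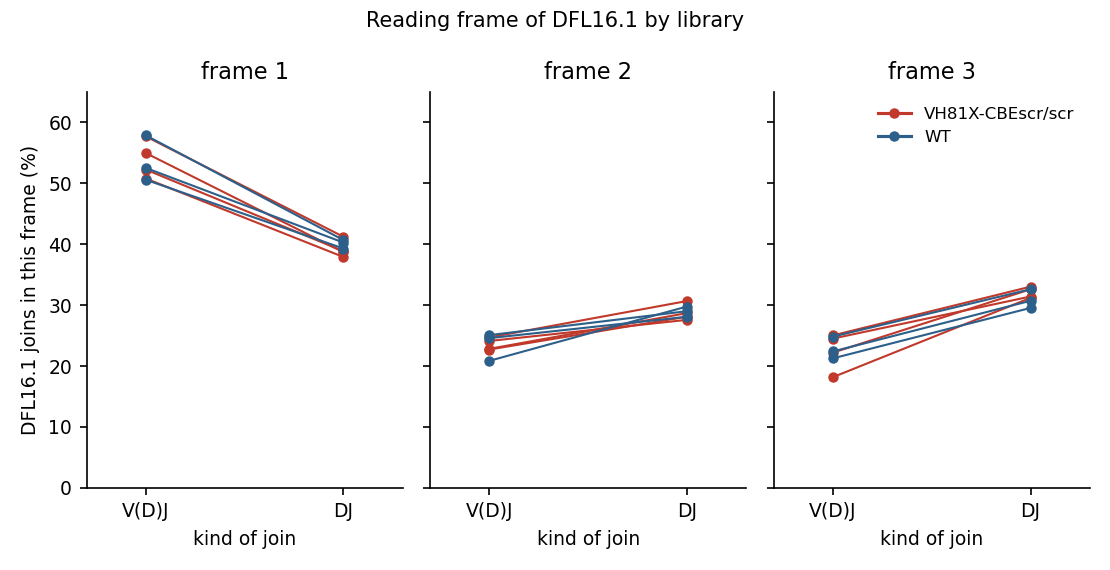
Percentage of DFL16.1 joins (y axis) in frames 1, 2 and 3 among V(D)J joins (left of each panel) and DJ joins (right) that kept at least 10 D bases. Each line is a library, 4 VH81X-CBEscr/scr and 3 WT. Frame 1 is higher in V(D)J joins and frames 2 and 3 are lower in each of the 7 libraries.

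Joins of DFL16.1 in the opposite orientation were rare. They numbered 18, 0, 9 and 13 lines in VH81X-CBEscr/scr replicates 1 to 4 and 3, 1 and 7 in WT replicates 1 to 3. Relative to deletional DFL16.1 junctions this was 0.200 ± 0.145% in VH81X-CBEscr/scr and 0.0587 ± 0.0395% in WT (exact permutation test of log2 ratios with 0.5 added, p = 0.457). Over the 7 libraries it was 0.139 ± 0.129% at DFL16.1 and 0.164 ± 0.0383% at the other D segments (exact sign-flip permutation test, p = 0.25). Of the 51 lines, 36 lay at the base next to the D 3′ end on the heptamer side and 46 within 5 bases of that end. An inverted D joins JH4 through its V-side end, and 0 of the 51 lines lay within 10 bases of that end, which allows a share of up to 0.00826% of deletional DFL16.1 junctions.

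Reads in which the bait end lay at JH3 were few. They made up 1, 1, 38 and 29 of the DFL16.1 lines in VH81X-CBEscr/scr replicates 1 to 4 and 14, 2 and 26 in WT replicates 1 to 3. The percentage ran from 0.0175 to 0.784% of DFL16.1 lines, with VH81X-CBEscr/scr replicates 3 and 4 the highest. At the other D segments it ran from 0.0371 to 0.782% and was highest in the same libraries. VH81X-CBEscr/scr replicates 3 and 4 came from the same sequencing run, and replicates 1 and 2 from another. WT replicates 2 and 3 also shared a run, with 0.0391 and 0.366% of DFL16.1 lines. Whether the run mattered was not tested.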

How the data were processed

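The files list 1 junction per line, which is 1 read, with its positions and sequence. They hold no count column, and each count used here is a number of deposited lines, duplicate-marked ones included. The submitters' processing notes name Bowtie2 and the build mm9 but give neither version nor filters. A genome of this build was not used here. Bases between bait and prey, bases lost and reading frames came from the alignment positions in each line, and bases shared by both alignments counted for both. D sequences are the consensus of alignments with no mismatch or gap (79.9% of DFL16.1 lines).

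Lines of the D region were grouped where neighbours lay no more than 300 bp apart and 10 or more lines came together, and 12 with at least 5000 lines are called main D segments. limma-voom (limma 3.58.1, R 4.3.3) compared genotypes over clusters with at least 10 junctions on average, with D-region junctions as library size and Benjamini-Hochberg adjustment (threshold 0.05). The code was also run on simulated counts with changes larger than that of the called cluster. That run does not bear on small differences. Single values were compared by two-sided exact permutation over 35 splits, and paired values by exact sign-flip permutation over 128 patterns (smallest p 0.0156), with Python 3.11.15 and SciPy 1.17.1. The 9 measures of join structure were adjusted together. Because reads carry no molecular identifiers and one molecule can give many PCR copies, intervals (95%, Wilson) and limits of a count of 0 (3 counts) cover counting error only.

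The members, measures and lists were chosen with earlier results of these data known. Segments named are DFL16.1, its neighbours among tested clusters, DQ52, the 3 of most similar share, and any called. D_114727777 and D_114705399 were also named as the next most used. Alternatives were lines not marked duplicate, distinct joins, each library left out, other windows, denominators, filters and match lengths, and the replicate number as a block. The alternatives on repeated joins, on the run as a random block and on frames by match length were added after seeing the data.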

Additional observations from a re-analysis of the deposited data

Results flagged for a closer look

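Among 20 measures of DFL16.1 checked for a library far from the others in the VH81X-CBEscr/scr group (n = 4), 1 was found, where chance gives about 1 in 20. The percentage of DFL16.1 lines marked duplicate was 92.3% in VH81X-CBEscr/scr replicate 1, and the nearest of the other libraries of this genotype was at 90.5%.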

How the results depend on the processing

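In all, 28 results were recomputed under the alternatives. The genotype difference in DFL16.1 share passed in none of them and its limma-voom value lay between -0.11 and -0.02 on the log2 scale, and each frame difference between V(D)J and DJ joins passed in all. Replicate numbers did not pair the libraries, since same-numbered deviations correlated at -0.56, -0.37 and -0.33 over the 12 segments. With the replicate number as a block, 0 D clusters were called in place of 1, although the log2 fold change of D_114687612 was -0.49 (limma-voom adjusted p = 0.421, unadjusted 0.0176), the DFL16.1 log2 fold change was -0.05 (limma-voom adjusted p = 0.766), and the exact tests of 3 pairs allow no p under 0.25. The block changed no other call. With the run as a random block the DFL16.1 value was -0.08 (adjusted p = 0.0944).

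Values that turned sign, or changed their side of the threshold, are given by setting. Against other D segments, lines not marked duplicate gave 1.09 bases for the loss from JH4, -1.98 points for frame 1, -1.70 for frame 3 and 0.30 (log2) for inverted joins, and distinct joins gave -1.82 for frame 3. With the most repeated DFL16.1 join of each library left out and the other segments unchanged, which lowers microhomology by construction, microhomology was 0.341, frame 1 -2.70 and frame 3 -2.04, and WT replicate 2 without its own gave -2.57 for frame 3. Leaving out the most repeated join of every D segment gave -2.63 for frame 3. D loss was 4.39 bases among unmarked lines, in place of 1.97. DFL16.1 in V(D)J against DJ joins was -2.39 points with 8 bases, 3.67 with 12 and 10.6 among unmarked lines.

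Between genotypes, where no value passed after adjustment, inserted length was -0.104 bases among unmarked lines (exact permutation p = 0.514) and -0.0805 without WT replicate 2. Unmarked lines gave 0.798 points for inserted joins, -0.641 for frame 2, -0.23 (log2) for inverted joins and 0.547 for the V(D)J share. Distinct joins gave -0.467 for frame 2 and 0.104 for the V(D)J share. Without the most repeated joins, full ends were -0.720, frame 1 -0.367, frame 2 -0.415 and frame 3 0.782. With that join left out of WT replicate 2 alone, these were -0.293, -0.0432, -0.562 and 0.605. The cause of these shifts was not tested.

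With 1 library left out, the sign-flip test over 6 libraries gives no p under 0.0312, so the adjusted p could pass 0.05 with the value hardly changed. Against other D segments, the ranges were 1.54 to 2.14 bases for D loss, -20.8 to -20.0 points for full ends, -0.288 to -0.107 bases for JH4 loss, -2.76 to -2.25 for inserted joins, -0.608 to -0.523 bases for inserted length, 1.20 to 1.56 for microhomology, -3.25 to -1.75 for frame 1, 3.20 to 4.42 for frame 2 and -2.15 to -0.483 for frame 3. The JH4 loss passed without WT replicate 2 (-0.288) and frame 1 without VH81X-CBEscr/scr replicate 2 (-3.25). DFL16.1 in V(D)J against DJ joins ranged from -0.162 to 0.931 and between genotypes from -1.48 to 0.677. Between genotypes, full ends ranged from -0.387 to 1.53, inserted joins from -1.58 to 0.114, frame 2 from -0.475 to 2.04 and frame 3 from -5.29 to 0.314, each turning sign without WT replicate 2. Depth limits inverted and JH3 joins, where a library held 0 to 38 lines.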
